A study of Mus musculus with 8 samples.

Results

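The genes described here encode the proteins of the cytosolic ribosome, the particle that translates messenger RNA outside the mitochondria. They were chosen by name: symbols that start with Rpl or Rps and a digit, plus Rpsa, Rplp0, Rplp1 and Rplp2, without the S6 kinase genes and without pseudogenes. A gene entered through the probe set (the group of array probes that reads a transcript) that names it alone and has the highest mean over all arrays. This gave 48 genes of the 12393 named genes on the array: 22 of the large subunit with its stalk, 20 of the small subunit and 6 paralogs, which are close relatives of a ribosomal protein gene. The 6 are Rps27l, Rpl22l1, Rpl7l1, Rpl3l, Rpl39l and Rps4l. A further 25 ribosomal protein genes were read only by probe sets that also name pseudogenes, processed copies or unnamed loci, and those probe sets are described separately. Rpl35a, Rpl36a and Rpl36al were also read only by shared probe sets, which name a further known gene or more than 1 ribosomal protein gene, and are not among the 25.

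The samples were ventral prostates of FVB mice aged 20 weeks. There were 4 transgenic samples, described in the labels as mouse prostatic intraepithelial neoplasia (a preinvasive growth of the glandular epithelium) and overexpressing an activated form of p110 beta, which is a catalytic isoform of PI3-kinase. The other 4 samples came from wild type mice and were described as normal. The promoter that drives the transgene, and whether each array stands for 1 animal, are not given in the sources used here, so p-values reflect only how far these samples vary, and that variation may be technical.

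A ribosome holds a small subunit, which decodes the message, and a large subunit, which joins amino acids. Most ribosomal protein messages begin with a C and a run of pyrimidines, the terminal oligopyrimidine tract, through which mTORC1, a kinase complex downstream of PI3-kinase, controls how well they are translated. That control acts largely on translation, and an array of total RNA measures message abundance and not translation. RPS27L is a near-identical paralog of RPS27 and is known in human and mouse cells as a gene induced by p53.

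The sequences around the annotated starts of 7 genes described below are printed. These are the Rps27 family (Rps27l, Rps27 and its retrocopy Rps27rt) and Rpsa, Rps10, Rplp2 and Rps6. Rpsa, Rps10, Rplp2 and Rps6 did not pass the main test below, and Rpl12, which did, is not printed. The sequences are RefSeq sequences of build GRCm38.p6, from 60 bases before the start to 25 bases from the start on. The capitals mark the longest run of C or T that touches the 5 bases before or the first 10 bases of the transcript.
Rps27l, chr9:66946026-66946110, plus strand: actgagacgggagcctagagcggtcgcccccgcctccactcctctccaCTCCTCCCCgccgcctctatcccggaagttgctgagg
Rps27, chr3:90213624-90213708, minus strand: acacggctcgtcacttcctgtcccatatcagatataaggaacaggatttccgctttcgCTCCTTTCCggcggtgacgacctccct
Rps27rt, chr9:114982715-114982799, minus strand: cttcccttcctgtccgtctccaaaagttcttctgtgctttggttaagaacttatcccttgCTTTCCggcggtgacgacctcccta
Rplp2, chr7:141447591-141447675, plus strand: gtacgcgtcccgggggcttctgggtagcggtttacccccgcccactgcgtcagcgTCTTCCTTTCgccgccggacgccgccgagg
Rps6, chr4:86857343-86857427, minus strand: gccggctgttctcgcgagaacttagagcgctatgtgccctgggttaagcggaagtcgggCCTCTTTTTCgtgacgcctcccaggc
Rpsa, chr9:120127706-120127790, plus strand: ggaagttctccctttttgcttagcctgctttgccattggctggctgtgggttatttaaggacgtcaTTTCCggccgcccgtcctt
Rps10, chr17:27635220-27635304, minus strand: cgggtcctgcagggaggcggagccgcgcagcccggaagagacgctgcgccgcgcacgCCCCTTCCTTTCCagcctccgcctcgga

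The run spans the start in Rps27, Rplp2, Rps6 and Rps10. In Rps27l the longest run lies just before the start, in Rps27rt it begins at the start, and in Rpsa it lies just after it. Rps27 and Rps27rt share an unbroken stretch of 38 bases that begins at base 2 of Rps27 and at base 1 of Rps27rt, while the longest stretch shared by the windows of Rps27 and Rps27l has 8 bases. Of the 48 genes, 42 had a window in the RefSeq table. A run of at least 8 bases was present in 18 of them, or 42.9%, and in 1924 of 17486 protein-coding genes. The ETS factor core CCGGAAG, on either strand of the 300-base window, was present in 21 of the 42 windows and in 11.9% of all. The YY1 core AAGATGG was in 14.3% of the 42 and in 6.4% of all, and the Sp1 box GGGCGG in 54.8% and in 46.3%. No overlap between motifs was removed, and a match only says that these letters are in the window.

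The arrays had similar medians, between 5.40 and 5.51 on the log2 scale, as the deposited RMA values are quantile normalized. Their spread was less alike, with an SD over all probe sets from 1.92 in wild type array 4 to 2.1 in wild type array 1. Tissue markers were present in each group, since Pbsn, the probasin gene, averaged 11.57 ± 0.45 in transgenic and 12.85 ± 0.35 in wild type prostates (SD, n = 4 each). Pbsn was lower in transgenic arrays, with a log2 fold change of -1.28 ± 0.22 (SE; limma adjusted p = 0.00361). Msmb, a further prostatic secretory gene, was also lower, at -1.72 ± 0.32 (SE; limma adjusted p = 0.00592). Neither gene is among the luminal markers counted next. The summed linear level of 8 luminal epithelial markers ran from 17200 to 17600 in transgenic and from 9870 to 11800 in wild type arrays, with 5 higher and 0 lower. The summed level of 11 basal markers ran from 930 to 1180 in transgenic and from 1460 to 1610 in wild type arrays, with 0 higher and 5 lower, and Krt14, Krt17, Trp63, Lamb3 and Ngfr below the median of every array in each group. For 12 smooth muscle markers the range was 5690 to 7630 in transgenic and 7810 to 13800 in wild type arrays, with 3 lower. For 12 fibroblast markers it was 1870 to 2130 in transgenic and 2650 to 5330 in wild type arrays, with 2 lower. The 3 prime minus 5 prime difference, averaged over the control probe sets of Gapdh and of beta actin, was 1.12 ± 0.19 in transgenic and 1.47 ± 0.09 in wild type arrays (SD, n = 4 each). The marker levels and the 3 prime minus 5 prime difference differ between the groups. The part of these measures, and of the unequal spread of the arrays, in the results below was not tested. In such whole tissue, fewer cells of a type and less RNA per cell cannot be told apart.

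Few ribosomal protein messages passed the test between transgenic and wild type prostates, and Rps27l, which fell, was the one that passed in every alternative tried. In the limma fit over all 22626 probe sets, 0 of the 48 genes rose, 2 fell (Rps27l and Rpl12) and 46 did not pass an adjusted p of 0.05. Over all 12393 genes 5.99% rose and 4.98% fell, so the 2 that fell, out of 48, are close to that share. Among genes with a mean of at least 10 on the log2 scale, where most ribosomal probe sets lie, 18.1% rose and 12.3% fell. At an unadjusted p under 0.05 there was 1 higher member of the 48, Rpl41, and 6 lower ones. Of all 12393 genes, 1322 were higher and 1504 lower at that cut. Of the 447 genes with a mean of at least 10, 128 were higher and 95 lower.

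The median log2 fold change of the 48 genes, transgenic minus wild type, was -0.12, with quartiles of -0.22 and -0.019, and 38 of the 48 values, or 79.2%, were below 0. Over all genes the median was -0.039 and 58.4% were below 0, and over genes with a mean of at least 10 the median was 0.036 and 47.7% were below 0. The median of the 20 small subunit genes was -0.132 and that of the 22 large subunit genes -0.081. The shift was smaller without transgenic array 1, where the median was -0.058, and with arrays weighted by their quality, at -0.044. The 95% interval of the fold change lay inside 1.5-fold in either direction for 35 of the 48 genes, or 72.9%. The share was 75.5% of all genes and 54.4% of genes with a mean of at least 10. For those 35 a larger change in either direction lies outside the interval.

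**Figure D1:**
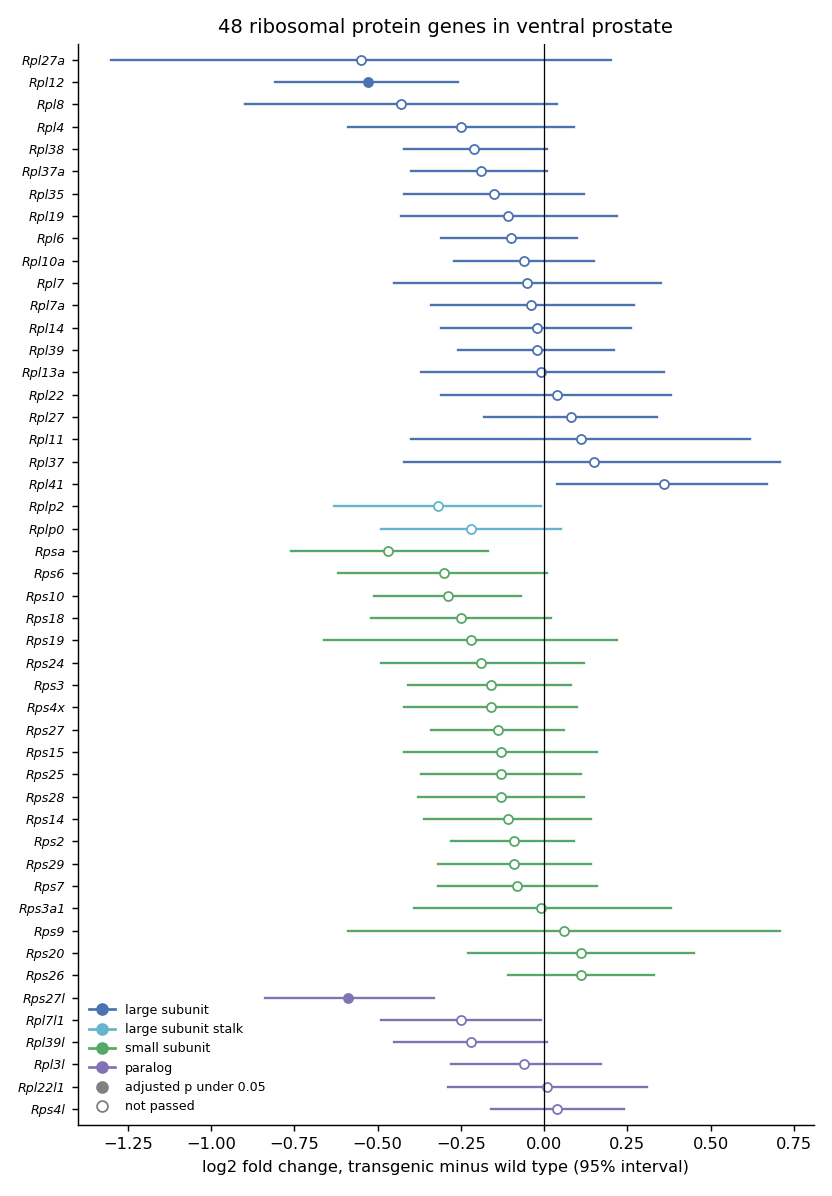
Log2 fold change (transgenic minus wild type) of each of the 48 genes with its 95% interval from limma, grouped by subunit, with filled circles at an adjusted p under 0.05. Of the 48 points 38 lie left of 0, and the filled ones are Rpl12 and Rps27l.

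Rps27l, the p53-inducible paralog of Rps27, was lower in every transgenic array than in any wild type array. Its log2 values were 10.87, 10.69, 10.61 and 10.68 in transgenic arrays 1 to 4, against 11.58, 11.14, 11.22 and 11.25 in wild type arrays 1 to 4. The level was 1.5-fold higher in wild type, a log2 fold change of -0.59 ± 0.12 (SE, n = 4 each; limma adjusted p = 0.00797). Its other probe sets gave -0.51 and -0.60, all 3 passed, and in none did the groups overlap. The main set passed in all 16 alternatives tried, with adjusted p from 0.00214 to 0.0315. As p53-related genes named after their values were seen, Cdkn1a was at -0.02 (adjusted p = 0.95) and Mdm2 at -0.17 (adjusted p = 0.514), and neither passed.

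The probe set that names both Rps27 and Rps27rt went the other way and was higher in every transgenic array. Its values were 12.15, 12.43, 12.48 and 12.56 in transgenic arrays 1 to 4, against 10.45, 11.48, 11.15 and 11.55 in wild type arrays 1 to 4. Wild type array 1 was the lowest of all 8, and it was also the highest for Rps27l. The log2 fold change was 1.25 ± 0.21 (SE, n = 4 each; limma adjusted p = 0.00295). It lay between 1.01 and 1.38 and passed in all 16 settings it was fitted in, with 1.01 without wild type array 1. The parent gene and its retrocopy share sequence, as the windows printed above show, and the probe set does not tell which of them it read. A dimmer probe set that names Rps27 alone had 6.45, 6.56, 6.47 and 6.41 in transgenic arrays, against 6.59, 6.70, 6.5 and 6.68 in wild type arrays. Those groups overlapped, at -0.14 ± 0.09 (SE; adjusted p = 0.447), so the rise was not seen in both probe sets.

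**Figure D2:**
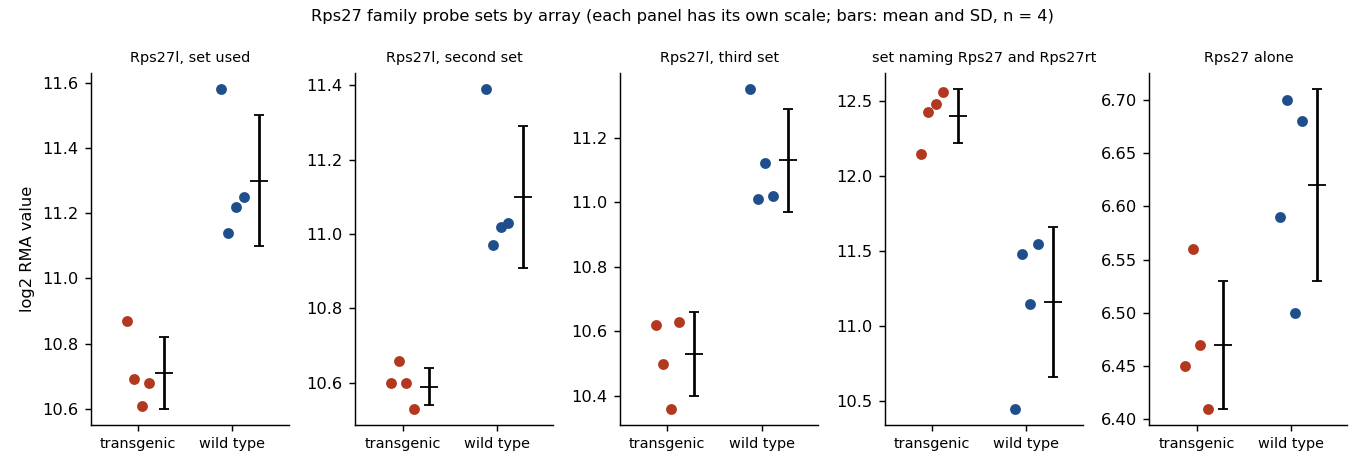
Log2 RMA values of the 5 probe sets of the Rps27 family in the 4 transgenic and 4 wild type arrays, each panel on its own scale, with mean and SD beside the points. The 3 Rps27l sets are lower in all transgenic arrays, the set naming Rps27 and Rps27rt is higher in all of them, and for Rps27 alone the groups overlap.

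Rpl12, a large subunit protein at the base of the stalk, passed through a dim probe set, the only one that names it alone. Its values were 5.59, 5.10, 5.24 and 5.21 in transgenic arrays, against 5.66, 5.91, 5.97 and 5.74 in wild type arrays. The groups did not overlap, with a log2 fold change of -0.53 ± 0.12 (SE, n = 4 each; adjusted p = 0.0186). The transgenic mean was lower than all 8 array medians, a level at which background may decide the signal. The call was lost in 6 of the 16 alternatives, which were the fit blocked on replicate number (adjusted p = 0.0562) and those without transgenic array 2 (adjusted p = 0.07), 3 (adjusted p = 0.0583) or 4 (adjusted p = 0.0633) or wild type array 2 (adjusted p = 0.0542) or 3 (adjusted p = 0.0665). Of the brighter probe sets that name Rpl12 with its processed copies, 1 gave 11.70, 12.08, 12 and 11.62 in transgenic arrays against 12.26, 12.01, 11.96 and 11.95 in wild type arrays. It was at -0.20 ± 0.13 and a second at -0.08 ± 0.11 (SE), and neither passed.

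Rpsa, a small subunit protein also known as the laminin receptor precursor, came nearest to the threshold from the other side. Its values were 10.95, 11.18, 11.28 and 11.02 in transgenic arrays, against 11.84, 11.47, 11.28 and 11.71 in wild type arrays. The groups touched at 11.28, with a log2 fold change of -0.47 ± 0.13 (SE, n = 4 each; adjusted p = 0.0513). It passed in 5 alternatives, with an adjusted p of 0.0129 after quantile normalization, 0.0139 after cyclic loess, 0.043 without the dimmest 40% of probe sets, 0.0497 when the prior variance followed the mean level and was fitted robustly, and 0.0286 without wild type array 3. Over all 16 the adjusted p ran up to 0.136.

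Rps10, a protein of the head of the small subunit, was read by 6 probe sets that name it alone, and all 6 had negative fold changes, from -0.34 to -0.12. The set used had 12.22, 11.98, 11.93 and 11.88 in transgenic arrays, against 12.34, 12.25, 12.25 and 12.32 in wild type arrays. Its groups did not overlap, at -0.29 ± 0.10 (SE; adjusted p = 0.109), and it passed without transgenic array 1 (adjusted p = 0.0392) and with array weights (adjusted p = 0.0415). A further set passed at -0.34 ± 0.09 (SE; adjusted p = 0.0391), but not in the fit blocked on replicate number (adjusted p = 0.0772) nor without any single array other than transgenic array 1 (adjusted p from 0.0623 to 0.121).

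The groups did not overlap for 5 of the 48 genes, Rps27l, Rpl12, Rps10, Rpl37a and Rps2, in each case with transgenic arrays lower. That is 10.4% of the members, against 8.20% of all genes that were lower in this way, and 0 members were higher in this way, against 8.09% of all genes. Among genes with a mean of at least 10, 16.1% were lower and 23% higher in this way. The size of these separations was small for Rps2, with values of 11.76, 11.84, 11.75 and 11.80 in transgenic arrays against 11.93, 11.85, 11.87 and 11.87 in wild type arrays, a difference of -0.09. In the bright sets that name Rps2 with predicted genes the groups overlapped, at 0 and -0.01. They also overlapped in a further bright set of Rpl37a, at -0.04 ± 0.15 (SE).

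The stalk of the large subunit recruits translation factors and is built from P0 with dimers of P1 and P2. Rplp2 had 11.15, 11.52, 11.52 and 11.35 in transgenic arrays, against 12.02, 11.81, 11.42 and 11.58 in wild type arrays, and the groups overlapped. Its log2 fold change was -0.32 ± 0.14 (SE; adjusted p = 0.218), and it passed after cyclic loess normalization at -0.38 (adjusted p = 0.0386). Rplp0 was at -0.22 ± 0.12 (SE; adjusted p = 0.356), with transgenic values between 11.88 and 12.25 and wild type values between 12.16 and 12.57. Rplp1 was read only together with a processed copy, at -0.25 ± 0.17 (SE; adjusted p = 0.479).

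Rps6, the small subunit protein phosphorylated by the S6 kinases, was named alone by a set at 7.51, 7.42, 7.51 and 7.37 in transgenic arrays, against 8.16, 7.79, 7.67 and 7.41 in wild type arrays. It was at -0.30 ± 0.14 (SE; adjusted p = 0.253) and did not pass. The brightest set that names Rps6 with a pseudogene had 13.08, 13.22, 13.15 and 13.20 in transgenic arrays, against 13.41, 13.46, 13.33 and 13.41 in wild type arrays. In that set the groups did not overlap, at -0.24 ± 0.09 (SE; adjusted p = 0.129), without passing. Of the proteins that bind Mdm2 when ribosome assembly is disturbed, Rpl11 was at 0.11 ± 0.23 (SE; adjusted p = 0.858). Rps19, which is mutated in Diamond-Blackfan anaemia in humans, was at -0.22 ± 0.20 (SE; adjusted p = 0.62), and Rpl38, needed for translation of Hox messages in the mouse embryo, at -0.21 ± 0.10 (SE; adjusted p = 0.262). Rps3 and Rps4x were each at -0.16, Rpl13a at -0.01, and Rps29, whose set had the highest mean of the 48, at -0.09.

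Rpl41, which encodes the smallest ribosomal protein, had the highest fold change of the 48. Its values were 12.67, 13.14, 13.36 and 12.94 in transgenic arrays, against 12.84, 12.59, 12.53 and 12.71 in wild type arrays. Transgenic arrays 2 to 4 lay above all wild type arrays and transgenic array 1 among them, at 0.36 ± 0.14 (SE, n = 4 each; adjusted p = 0.17). It passed without transgenic array 1, at 0.48 (adjusted p = 0.0417), and with array weights, at 0.49 (adjusted p = 0.0226). A second bright set was at 0.21, and both dim sets were below 0, at -0.12 and -0.19. The fold change was -0.19 when sets with the suffixes for shared probes were left out, so its direction depended on the probe set.

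The other paralogs gave no calls. Rpl22l1, a paralog of Rpl22, was at 0.01 ± 0.14 and Rpl22 itself at 0.04 ± 0.16 (SE). Rpl7l1, a relative of Rpl7, was at -0.25 ± 0.11 (SE; adjusted p = 0.207) and Rpl7 at -0.05 ± 0.18 (SE). Rpl3l, the form of Rpl3 used in striated muscle, Rpl39l, the form of Rpl39 used in male germ cells, and Rps4l lay below the median of every array in each group. Their means were 4.07, 3.87 and 3.64 in transgenic and 4.12, 4.08 and 3.6 in wild type arrays. Rpl39, on the X chromosome, was at -0.02 ± 0.11 (SE).

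In all, 202 probe sets name a ribosomal protein gene, 100 of them alone and 102 with others. Of the 202, 3 rose and 6 fell, against 5.48% and 4.36% of all probe sets. Besides the sets of Rps27l, Rpl12, Rps10 and the Rps27 family, the calls were the following. A set of Rps24 was at 5.78, 6.04, 6.51 and 5.85 in transgenic arrays against 7.01, 6.70, 6.82 and 6.59 in wild type arrays (-0.73; adjusted p = 0.0131), while the 4 brighter Rps24 sets lay between -0.20 and -0.15 without passing. A set of Rps9 near background was at 0.60, with means of 3.98 in transgenic and 3.38 in wild type arrays, while the bright set used for Rps9 was at 0.06. The dim Rps9 set missed the threshold without transgenic array 2 (adjusted p = 0.0695), 3 (adjusted p = 0.0669) or 4 (adjusted p = 0.0522) or wild type array 3 (adjusted p = 0.0636). The set that names Rpl13 and Tax1bp3, which encodes a PDZ domain protein, had 10.33, 10.32, 10.20 and 10.33 in transgenic arrays against 9.31, 9.56, 9.35 and 9.12 in wild type arrays. It rose by 0.96 (adjusted p = 0.000181). The probe set of Tax1bp3 alone rose by 0.69 (adjusted p = 0.00079), and the 3 sets that name Rpl13 with its pseudogene lay between -0.20 and -0.12 and did not pass.

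**Figure D3:**
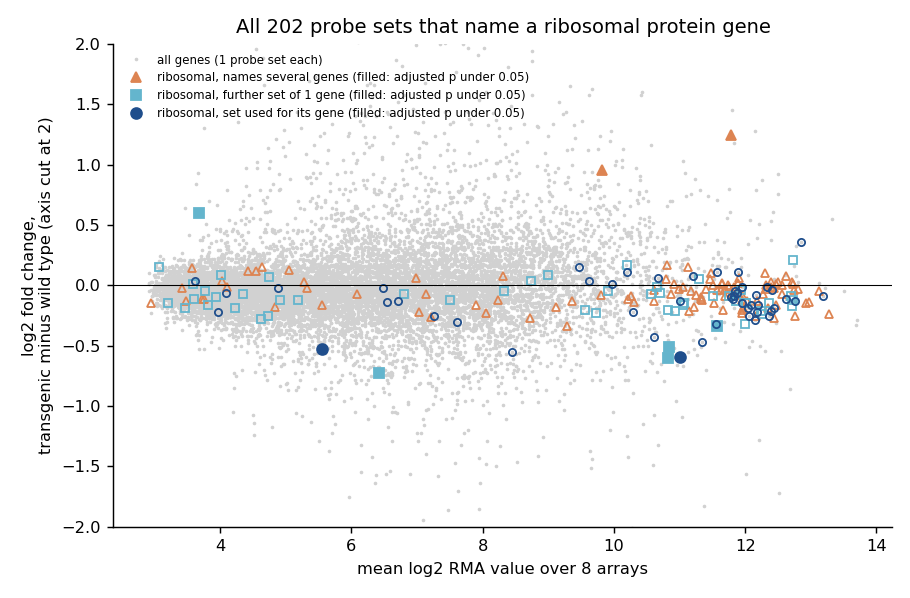
Log2 fold change (transgenic minus wild type) against the mean log2 RMA value for all 202 probe sets that name a ribosomal protein gene, over the genes of the whole array in grey, with the vertical axis ending at 2 in either direction. Most ribosomal sets lie close to 0 at the bright end, and the filled orange points are the sets naming Rps27 with Rps27rt and Rpl13 with Tax1bp3.

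Probe sets of several genes were also admitted where they name 1 ribosomal protein gene and otherwise only its retrocopy, pseudogenes, predicted genes or microRNAs, and 73 genes could then be read. Of these 1 rose, the Rps27 with Rps27rt set, and 1 fell, Rps27l, with a median of -0.081. The 25 genes added this way include Rpl3, Rpl5, Rpl10 and Rplp1, and none of them passed.

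The ribosomal protein genes moved together between arrays of the same group by as much as between the groups. The mean over the 48 genes, each centred on its own mean, was -0.237, 0.021, 0.055 and -0.101 in transgenic arrays 1 to 4, against 0.237, 0.122, -0.068 and -0.03 in wild type arrays 1 to 4. The groups overlapped, with transgenic array 1 the lowest and wild type array 1 the highest. The group means were -0.07 ± 0.13 in transgenic and 0.07 ± 0.14 in wild type arrays (SD, n = 4 each), so the difference of -0.13 was no larger than the spread within a group. Large and small subunit genes kept to the same order, at -0.258 and -0.259 in transgenic array 1 and at 0.234 and 0.268 in wild type array 1.

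**Figure D4:**
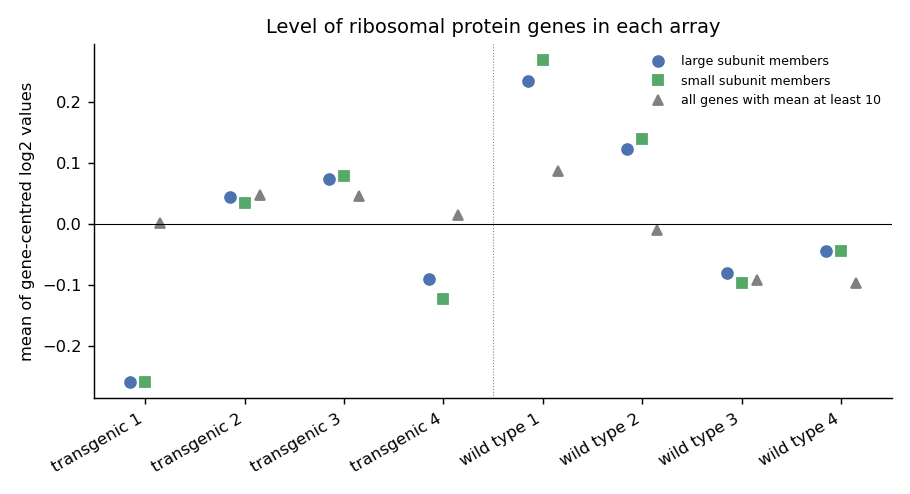
Mean of gene-centred log2 values in each array for large subunit genes with the stalk (circles), small subunit genes (squares) and all genes with a mean of at least 10 (triangles). The subunits lie together in each array, lowest in transgenic array 1 and highest in wild type array 1, and the groups overlap.

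Transgenic array 1 held the lowest transgenic value of 29 of the 48 genes, or 60.4%, against 26.7% of all genes and 39.6% of genes with a mean of at least 10. Wild type array 1 held the highest wild type value of 38 of the 48, or 79.2%, against 31.2% of all genes and 55.9% of genes with a mean of at least 10. The mean over those bright genes, each centred on its own mean, was 0.001, 0.048, 0.045 and 0.015 in transgenic arrays 1 to 4. In wild type arrays 1 to 4 it was 0.087, -0.01, -0.091 and -0.096. The 3 prime minus 5 prime difference was 1.06 in transgenic array 1, where the other transgenic arrays had 1.06, 0.97 and 1.40, and 1.48 in wild type array 1, where the others had 1.34, 1.49 and 1.56. Whether these array measures bear on the ribosomal genes was not tested.

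Genes differed in how far they took part in this. The SD within groups ran from 0.04 for Rps2 to 0.64 for Rpl27a, with a median of 0.18 over all members. The median was 0.20 for members with a mean of at least 8, and 0.17 for all genes with a mean of at least 10. Rps9 was among the widest, with 10.02, 10.93, 11.27 and 10.60 in transgenic arrays against 11.34, 10.89, 10.16 and 10.18 in wild type arrays. Rpl37 and Rpl11 were also lowest in transgenic array 1 and highest in wild type array 1, with ranges of 1.05 and 0.96 on the log2 scale over the 8 arrays. Rpl8, at -0.43 ± 0.21 (SE; adjusted p = 0.284), had 9.75 in transgenic array 1 and 11.23 in wild type array 1, and 10.46 to 10.92 in the other 6. The set used for Rpl27a ran the other way, with 9.05, 7.57, 7.79 and 8.27 in transgenic arrays against 8.09, 8.27, 9.33 and 9.19 in wild type arrays. A brighter set that names Rpl27a with predicted genes did not. It had 11.24, 11.92, 11.92 and 11.58 in transgenic arrays against 11.91, 11.86, 11.20 and 11.59 in wild type arrays, at 0.02 ± 0.19 (SE).

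**Figure D5:**
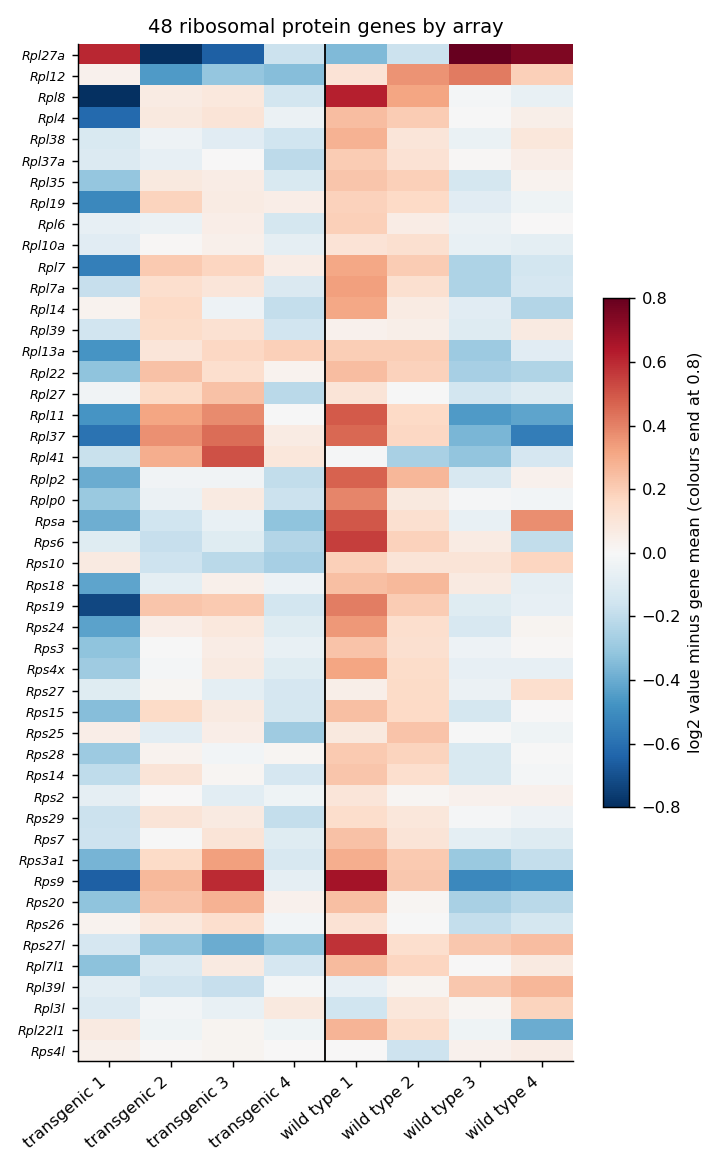
Log2 value minus the gene's own mean over the 8 arrays for the 48 genes (rows, in the order of the fold change plot) in 4 transgenic and 4 wild type arrays (columns), red above and blue below the mean. Transgenic array 1 is blue and wild type array 1 red for most rows, the set used for Rpl27a shows the opposite, and Rps27l and Rpl12 separate the groups.

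Other genes of translation and ribosome assembly also gave few calls, to be set beside the 5.99% of all genes that rose and the 4.98% that fell. Of 35 initiation factor genes 1 rose and 2 fell, with a median of -0.154. Eif4e2, a cap-binding protein that represses translation, had 8.12, 8.40, 8.53 and 8.45 in transgenic arrays against 7.81, 7.68, 7.75 and 7.74 in wild type arrays, a rise of 0.63 ± 0.11 (SE; adjusted p = 0.00285). Eif2b4 and Eif2b5, subunits of the exchange factor that recharges initiation factor 2, fell by 0.45 and 0.49. Eif2b5 missed the threshold in the fit blocked on replicate number (adjusted p = 0.102) and when any single array but wild type array 4 was left out, with adjusted p up to 0.102, and Eif2b4 without transgenic array 2 (adjusted p = 0.0592). After quantile normalization 9 initiation factor genes fell and after cyclic loess 7, and 2 rose without transgenic array 1 or wild type array 1. Without transgenic array 2 the count that fell was 0, without transgenic array 3 or 4 or wild type array 1, 2 or 3 it was 1, and without wild type array 4 it was 4.

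Of 13 elongation and termination genes 0 rose and 0 fell in limma, with 0 and 3 at an unadjusted p under 0.05 and 1 lower after quantile or cyclic loess normalization. At that unadjusted cut 1322 of all 12393 genes were higher and 1504 lower. The smallest p of the 13 genes was that of Eif5a, at -0.51 ± 0.17 (SE; adjusted p = 0.0871), which passed without transgenic array 1 (adjusted p = 0.00777) and with array weights (adjusted p = 0.0161). Of 57 genes of ribosome assembly 0 rose and 1 fell, Mphosph10, a protein of the U3 particle that cleaves ribosomal RNA precursors. It had 7.29, 7.43, 7.38 and 7.23 in transgenic arrays against 8.15, 7.98, 7.73 and 7.80 in wild type arrays, a change of -0.58 ± 0.11 (SE; adjusted p = 0.00661). The assembly count that fell was 2 after quantile or cyclic loess normalization and without transgenic array 1, where 2 also rose, and 3 without wild type array 4.

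Of 13 genes of RNA polymerase I, which makes ribosomal RNA, 0 rose and 1 fell, the subunit gene Polr1e at -0.48 (adjusted p = 0.0257). Its transgenic mean of 4.74 and wild type mean of 5.22 lay below every array median. Polr1e missed the threshold after quantile normalization (adjusted p = 0.0594) and in 7 further alternatives, with adjusted p up to 0.564. Of 74 mitochondrial ribosomal protein genes, which belong to a separate ribosome, 1 rose and 2 fell, with a median of 0.04. Without transgenic array 1, 4 rose and 3 fell. Without transgenic array 2, 3 or 4 or wild type array 2 or 3, 0 rose and 1 fell, and without wild type array 1 or 4, 1 rose and 1 fell. Mrps6 had 6.67, 6.59, 6.53 and 6.41 in transgenic arrays against 7.75, 7.59, 6.95 and 7.33 in wild type arrays (-0.85; adjusted p = 0.00497). Mrpl10, at -0.48, and Mrpl23, at 0.47, missed the threshold without most single arrays, with adjusted p up to 0.129 for Mrpl10 and 0.135 for Mrpl23, and in the fit blocked on replicate number (adjusted p = 0.0506 for Mrpl10 and 0.0708 for Mrpl23).

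Of 23 genes of mTORC1 and the S6 kinases 1 rose and 1 fell. Ddit4, which encodes an inhibitor of mTORC1, had 10.13, 10.81, 10.30 and 10.41 in transgenic arrays against 9.50, 8.78, 9.30 and 9.13 in wild type arrays, a rise of 1.24 ± 0.17 (SE; adjusted p = 0.000812). Rraga, a GTPase that signals amino acids to mTORC1, was at -0.57 (adjusted p = 0.0309) and missed the threshold in 8 alternatives, with adjusted p up to 0.0997. The count that fell was 2 without wild type array 1. Rps6kb2, an S6 kinase gene, was at -0.41 (adjusted p = 0.104) and passed in 3 alternatives. Of 11 genes of the Myc network 1 rose, Mlx by 0.57 (adjusted p = 0.0119), with 2 without wild type array 1, and Myc, which drives ribosomal protein genes, was at -0.21 ± 0.14 (SE; adjusted p = 0.476). Fau, a ribosomal protein gene that the naming rule leaves out, was at -0.04 ± 0.14 (SE; adjusted p = 0.906).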

How the data were processed

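Total RNA of ventral prostate was hybridized to 8 1-colour Affymetrix arrays, 4 transgenic and 4 wild type. The values analysed are the log2 values the authors deposited, for which the submitters' processing notes name RMA, that is background correction, quantile normalization and summary per probe set. Version and array image files were not used here. RMA brings the probe values of each array to a common distribution, so a change shared by most genes cannot be seen. The values per probe set still differed in spread between arrays, and the number of arrays limits the precision.

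Of the probe sets, 64 controls were left out and the other 22626 entered 1 fit in limma 3.58.1, run under R 4.3.3 (transgenic against wild type, moderated by eBayes, no covariates), with Benjamini-Hochberg adjustment over all of them and a threshold of 0.05. The platform annotation gave 20380 probe sets 1 symbol, 691 several and 1555 none. A gene was read by the single-symbol probe set with the highest mean. Means of probe sets were ranked only to choose a set for each gene and to tell bright from dim sets, and amounts of different messages were not compared. The number of per-sample columns left unused was 0. The fit was tested on simulated data.

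The members and lists were chosen with earlier results of these data known. Genes named are those past the threshold (up to 15 in each direction), those with the highest and lowest level and a fixed set of members and regulators, plus, in each further list, up to 3 calls in each direction or the smallest p. Rpl3l, Rpl7, Rpl8, Rpl13, Rpl14, Rpl27a, Rpl37, Rpl37a, Rps2, Rps9, Rps10 and Rps24 fall outside this rule and were named after their values were seen, as were Rpl35a and Msmb. Alternatives were other normalizations, a filter on dim probe sets, another variance model, array weights, other choices of probe set, a replicate block and leaving out each array. The use of probe sets of several genes and of members with a mean of at least 8 was chosen after seeing the data.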

Additional observations from a re-analysis of the deposited data

Results flagged for a closer look

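Of 126 groups of 4 arrays examined for a value far from the other 3, 5 held one, and chance flags about 1 in 20 groups. For 3 ribosomal protein genes this was transgenic array 1. Rpl13a was 11.47 there, against 12.04 to 12.13 in the other transgenic arrays. Rpl19 was 11.3 there, against 11.87 to 11.99. Rps28 was 12.47 there, against 12.74 to 12.79. The mitochondrial gene Mrpl10 stood out in the same array but upwards, at 8.45 against 7.91 to 7.97. Eif5a was 12.12 in wild type array 2, against 12.37 to 12.40 in the other wild type arrays.

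Among the probe sets of several genes, which the count over the 48 genes does not use, 2 passed the threshold upwards. The set naming Rps27 and Rps27rt had a log2 fold change, transgenic minus wild type, of 1.25, and the set naming Rpl13 and Tax1bp3 of 0.96.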

How the results depend on the processing

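The count of ribosomal protein genes that rose was 0 and became 1 with array weights and with probe sets of several genes admitted, and lay between 0 and 1 when each array was left out, with 1 only without transgenic array 1. The count that fell was 2 and became 4 after cyclic loess normalization, 1 with probe sets of several genes admitted and 1 among members with a mean of at least 8, and lay between 1 and 3 when each array was left out. It was 1 without transgenic array 2, 3 or 4 or wild type array 2. The median change stayed below 0 in all 18 alternatives, between -0.164 and -0.044, and the median of all genes lay between -0.055 and -0.014. With replicate number as a block the count that fell was 1, since Rpl12 was at an adjusted p of 0.0562. The labels do not say whether the replicate numbers pair the samples. Deviations of same-numbered arrays correlated at -0.31, 0.24, -0.20 and 0.33, and 2 of 8 arrays correlated best with their own number. With so few arrays these values cannot decide whether the samples are paired. No single gene tested changed direction while past the threshold. The cause of these changes was not tested. Rpl3l, Rpl39l, Rps4l and Rpl14 lay below every array median in each group, where signal over background limits what can be seen. For Rpl14 this holds for the set that names it alone. The brightest set that names Rpl14 with its pseudogene had means of 11.74 in transgenic and 11.76 in wild type arrays, at -0.01 ± 0.18 (SE).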
